A study of Gallus gallus with 20 samples.

Results

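Oxidative phosphorylation is the process by which mitochondria turn the energy of nutrients into ATP. Complexes I and II pass electrons from NADH and succinate to ubiquinone, complex III passes them to cytochrome c, and complex IV passes them to oxygen. Complexes I, III and IV pump protons across the inner membrane, and complex V, the ATP synthase, makes ATP as the protons flow back. Most subunits are encoded in the nucleus and imported, while a core set is encoded in mitochondrial DNA and was not analysed here. Kidney tubules depend on this pathway to power the sodium pump.

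The genes described are those whose symbols begin with NDUF, SDH followed by A to D, UQCR, COX followed by digits, CYC or ATP5. The rule found 72 of the 19650 named genes in the table. In RefSeq, 97 genes with a transcript carry these prefixes, and 25 of them were not analysed here under these prefixes. Not all 72 are subunits: 51 are structural subunits, 18 are assembly factors that build the complexes, and 3 have other roles. These 3 are the electron carrier CYCS (cytochrome c), the supercomplex factor COX7A2L and ATP5S, known in mammals as coupling factor B. Of the subunits, 26 belong to complex I, 3 to complex II, 4 to complex III, 8 to complex IV and 10 to complex V. NDUFA4 was counted in complex IV, to which it is now known to belong despite its name.

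The series holds 20 chicken (Gallus gallus) samples of kidney and testis, and 19 of them are small RNA libraries that were not used here. The single RNA-seq library, made from adult kidney, is the source of every value, and its labels state no sex, strain, treatment or number of animals. Its growth protocol mentions mice beside chickens, while its organism label is chicken. There are no replicates and no compared condition, so no value below has a test between samples. The library held 21832272 estimated reads, and levels are given in TPM, which scales reads to a share of the library per unit of transcript length. The 95% intervals are exact Poisson intervals of the reads and cover counting error alone. All 11 kidney markers were detected, among them the distal tubule transporter SLC12A3 at 64.3 TPM and the proximal tubule phosphate transporter SLC34A1 at 4055 TPM. Of 8 heart and skeletal muscle markers 3 were detected, the highest being ACTA1 at 10.2 TPM. MB had 1 read, and MYL2 had none, which allows up to 0.365 TPM at 3 reads. Of 4 liver markers 2 were detected, APOH at 50.4 TPM and FGA at 8.57 TPM, while 51.4% of all genes were detected. ALB stood at 0.492 TPM and TTR had no reads, which allows up to 0.353 TPM. The erythrocyte genes HBA1, HBBA, HBM and SLC4A1 ranged from 37.2 to 486 TPM, and their part in the levels below was not tested.

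Nearly all members were present, most of them at high levels. Detection required at least 1 TPM and 3 reads. Of the 72 members 70 met this, against 51.4% of all genes and 70.5% of genes without a LOC symbol. The exceptions were ATP5A1W, a copy of the ATP synthase alpha gene, and the complex I assembly factor NDUFAF4. At 10 TPM or more stood 50 of the 51 subunits, against 27.7% of all genes, and at 100 TPM or more 32 of 51, against 3.11%. The median over the 51 subunits was 135 TPM (quartiles 81.7 and 245), and the median over all genes was 1.21 TPM. That is a 112-fold ratio to all genes, and a 21.7-fold ratio to the median of 6.23 TPM over genes with at least 3 reads. The subunits together drew 0.443% of the library's reads and 0.938% of its TPM. In RNA from whole kidney, the number of cells expressing a gene and the amount of its RNA per cell cannot be told apart.

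By the reported setting, levels differed between the complexes, with complex I lowest and complex IV highest by median. The median subunit stood at 94.7 TPM in complex I, 164 TPM in complex II, 247 TPM in complex III, 324 TPM in complex IV and 227 TPM in complex V. Relative to complex I, the ratio of medians was 1.73 for complex II, 2.60 for complex III, 3.42 for complex IV and 2.40 for complex V. The order of complexes I and IV turned in 2 other settings, to a ratio of 0.701 with assembly factors included and 0.821 with subunits under 700 bases left out. Complexes I and III did not overlap on effective lengths, although with annotated lengths only 2 of 4 complex III subunits stood above all of complex I. On effective lengths, the lowest of the 4 measured complex III subunits, UQCRFS1, stood 1.10-fold (1.04 to 1.15) above the highest of the 26 complex I subunits, NDUFV1. Of the 8 complex IV subunits 6 stood above all of complex I, and of the 10 complex V subunits 6 did. For scale, NDUFV1, which sets that bar, stood above 98.3% of all genes. This ranking covers only the measured subunits, and only 3 and 4 genes represent complexes II and III. The catalytic beta subunit of complex V, the core proteins of complex III and COX4I1 of complex IV are among the subunits not analysed here.

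**Figure D1:**
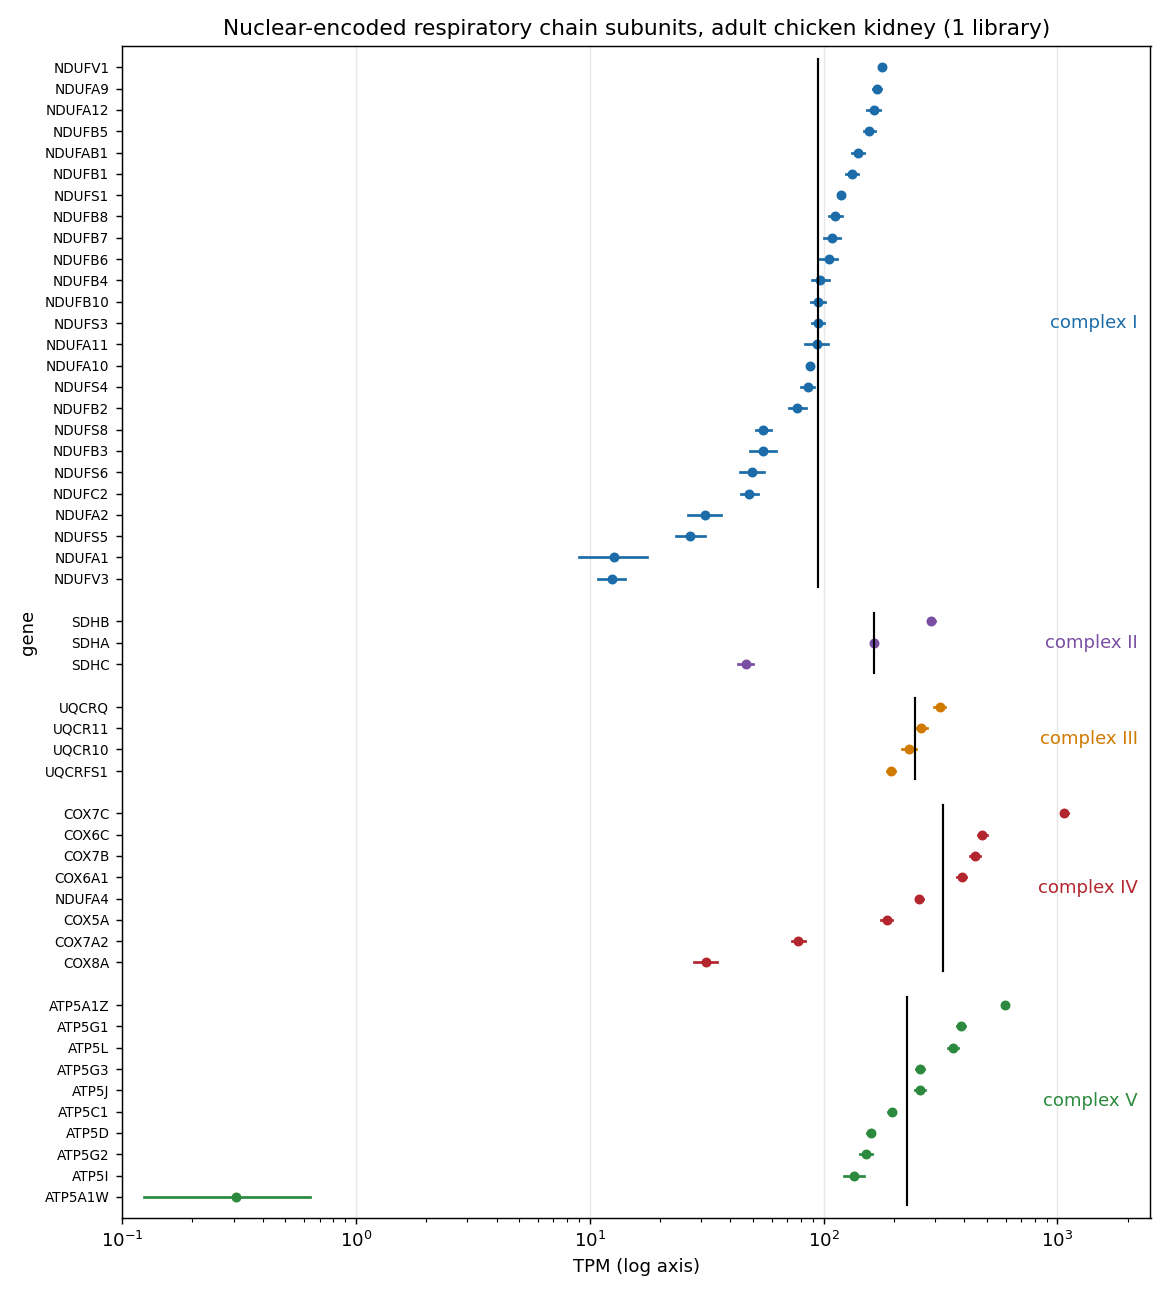
Levels of 50 of the 51 measured subunits in the single kidney library, in TPM on a log axis, grouped by complex. Points are gene levels, horizontal lines are 95% Poisson intervals of the reads, and black vertical lines are the complex medians, from 94.7 TPM in complex I to 324 TPM in complex IV; ATP5A1W lies far below all others at 0.309 TPM.

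Complex I, which oxidises NADH, had 26 measured subunits between 12.4 and 178 TPM, a 14.3-fold range. Its peripheral arm is built of a module that oxidises NADH (N) and a module that reduces ubiquinone (Q), and its membrane arm of a proximal and a distal part. The medians were 85.5 TPM over 7 subunits of the N module, 48.1 TPM over 5 of the proximal arm and 107 TPM over 10 of the distal arm. The Q module ranged from 55.4 to 170 TPM. The proximal arm, whose highest member stood at 93.4 TPM, had the lowest of these 3 medians, and the parts overlapped in range.

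In the N module, NDUFV1, which binds NADH and the flavin that takes its electrons, was the highest complex I subunit at 178 TPM (172 to 184) from 3680 reads. NDUFS1, the large subunit that carries several iron-sulphur clusters of the electron path, stood at 119 TPM (116 to 122) from 7191 reads. NDUFV1 was 1.497-fold (1.44 to 1.56) above NDUFS1 per length, although NDUFS1 with its row of 4024 bases drew more reads. NDUFA12, an accessory subunit added late in assembly, stood at 164 TPM (154 to 175). NDUFS4, whose loss in mice causes a Leigh-like encephalopathy, stood at 85.5 TPM (80.5 to 90.7). NDUFS6, a zinc-binding accessory subunit, stood at 49.6 TPM and NDUFA2 at 31.1 TPM (26.4 to 36.4). NDUFV3, an accessory subunit beside NDUFV1, was the lowest subunit of complex I at 12.4 TPM (10.9 to 14.1) from 239 reads. NDUFV1 stood 14.3-fold (12.6 to 16.4) above it, so partners of the same module differed by far more than their counting error.

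In the Q module, NDUFA9, an accessory subunit of the dehydrogenase fold, led at 170 TPM (163 to 176). NDUFS3, a conserved core subunit, stood at 94.6 TPM (89.1 to 100.3). NDUFS8, which carries a pair of iron-sulphur clusters, was lowest of the module at 55.4 TPM (51.4 to 59.6), with NDUFA9 3.06-fold (2.82 to 3.33) above it.

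In the membrane arm, the distal subunits ran from 55.3 TPM for NDUFB3 to 157 TPM for NDUFB5, or 2.84-fold (2.47 to 3.27). By the reported setting this was the narrowest range of the 4 parts, but its interval overlapped the 3.06-fold (2.82 to 3.33) of the Q module. The order of these parts turned with annotated lengths, at 3.50 for the distal arm against 3.20 for the Q module. It also turned with the most abundant transcript alone, at 3.21 against 3.06. NDUFAB1, the mitochondrial acyl carrier protein that also serves fatty acid synthesis, stood at 140.2 TPM (132 to 149). NDUFB1 stood at 132 TPM, and NDUFB8, NDUFB7 and NDUFB6 lay between 105 and 112 TPM with overlapping intervals. NDUFB4 and NDUFB10 stood at 96.9 and 94.9 TPM, also with overlapping intervals, and NDUFB2 at 77.3 TPM. In the proximal arm, NDUFA11 stood at 93.4 TPM (83.4 to 104) and NDUFA10, which resembles nucleoside kinases, at 87.7 TPM (85.0 to 90.3). NDUFC2 stood at 48.1 TPM, and the intermembrane-space subunit NDUFS5 at 27.0 TPM (23.4 to 31.0). NDUFA1, a small membrane subunit, stood at 12.8 TPM (8.98 to 17.6) from only 37 reads, and its interval overlapped that of NDUFV3.

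**Figure D2:**
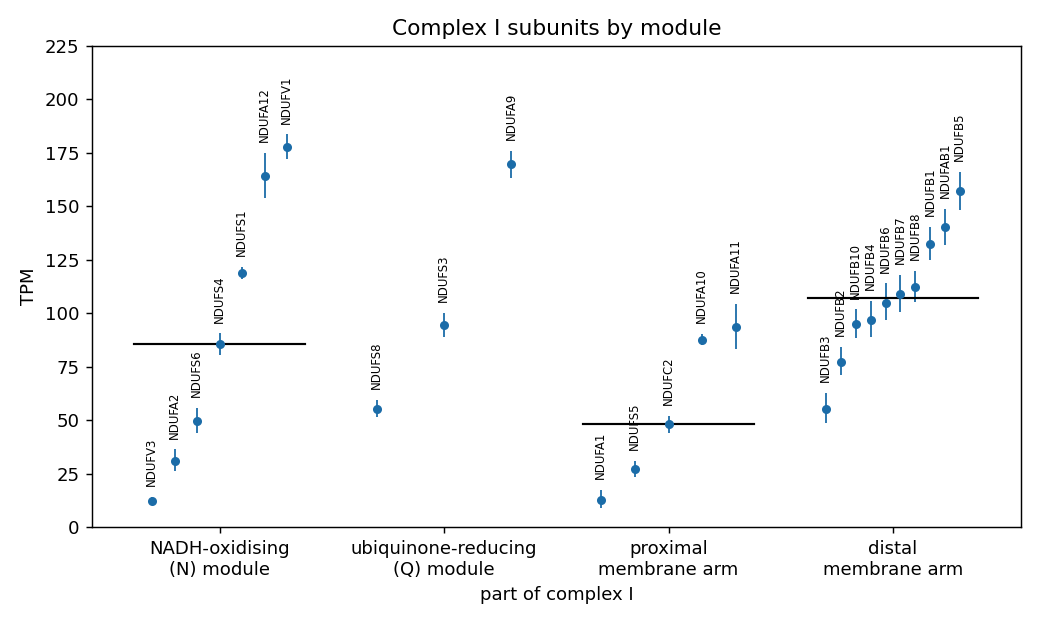
Levels of 25 of the 26 measured complex I subunits in TPM on a linear axis, by module. Points are gene levels with 95% Poisson intervals of the reads and black lines are medians of 3 of the parts, of which the proximal membrane arm has the lowest, 48.1 TPM, and the distal arm the highest, 107 TPM.

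Complex II, succinate dehydrogenase, is also an enzyme of the tricarboxylic acid cycle, and all its subunits are nuclear-encoded. SDHB, the iron-sulphur subunit, led at 289 TPM (280.1 to 299) from 3683 reads. SDHA, the flavoprotein that oxidises succinate, stood at 164 TPM (160 to 168) from 5665 reads. SDHC, a membrane anchor, stood at 46.4 TPM (42.9 to 50.1). SDHB stood 1.76-fold (1.69 to 1.84) above SDHA and 6.24-fold (5.74 to 6.79) above SDHC, so genes of a complex with equal numbers of each subunit differed well beyond counting error. The second anchor, SDHD, was not analysed here.

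Complex III, which passes electrons from ubiquinol to cytochrome c, had the narrowest range of the complexes, 1.61-fold over 4 subunits. UQCRFS1, the Rieske iron-sulphur protein that takes the electron toward cytochrome c, stood at 195 TPM (188 to 203). On effective lengths the small subunits stood above it: UQCR10 at 232 TPM (217 to 248), UQCR11 at 261 TPM (246 to 277) and UQCRQ at 314 TPM (297 to 332). With annotated lengths only UQCRQ did, at 308 TPM against 280 TPM for UQCRFS1. UQCR11 and UQCR10 then stood below it, at 265 and 226 TPM. UQCRQ was 1.61-fold (1.503 to 1.72) above UQCRFS1 in TPM, and 1.10-fold with annotated lengths. It had 0.466 times the reads of UQCRFS1, since its row of 445 bases is far shorter than the 1052 bases of UQCRFS1. CYCS, the cytochrome c that complex III reduces, stood at 128 TPM (123 to 133), and UQCRFS1 was 1.52-fold (1.44 to 1.61) above it.

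Complex IV, cytochrome c oxidase, had both the highest subunit of all and a wide range, 34.1-fold. COX7C, a small membrane subunit, reached 1070.1 TPM (1035 to 1106) from 3551 reads, above 99.8% of genes. COX6C stood at 478 TPM (459 to 497), COX7B at 445 TPM (424 to 467), and COX6A1 at 391 TPM (374 to 408). COX6A1 is in mammals the form of subunit VIa found outside heart and muscle, and it was the only gene of its isoform family measured. NDUFA4 stood at 257 TPM (248 to 266), and COX5A, which lies on the matrix side, at 187 TPM (177 to 197). COX7A2, in mammals the widely expressed form of subunit VIIa, stood at 77.9 TPM (72.9 to 83.0) and COX8A at 31.3 TPM (28.0 to 35.0), so the lowest pair lay apart from the other 6. COX7C was 5.73-fold (5.38 to 6.11) above COX5A and 34.1-fold (30.4 to 38.4) above COX8A. These ratios were 4.28 and 23.0 with annotated lengths, where COX7C stood at 975 TPM and ATP5A1Z of complex V at 941 TPM. COX7A2L, a relative of COX7A2 that joins complexes III and IV in supercomplexes, stood at 60.7 TPM (56.8 to 64.8), with COX7A2 1.28-fold (1.17 to 1.41) above it.

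Complex V, the ATP synthase, consists of a catalytic head, a rotor with a ring of c subunits, and a stalk that holds the head still. ATP5A1Z, the Z-linked gene of the alpha subunit, led at 594 TPM (585 to 603) from 16037 reads, the most of any subunit. ATP5C1, the gamma subunit of the central shaft, stood at 196 TPM (189 to 203), and ATP5D, the delta subunit beside it, at 159 TPM (153 to 165). The ratio of ATP5A1Z to ATP5C1 was 3.04 (2.92 to 3.16), and 3.30 with annotated lengths. Alpha is present in several copies per enzyme and gamma once, but whether RNA levels follow copy number was not tested. Delta, also present once, stood at 0.812 times ATP5C1 (0.771 to 0.855).

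The c ring is made of many copies of 1 protein, which in vertebrates comes from several genes. ATP5G1 stood at 387 TPM (373 to 402), ATP5G3 at 260 TPM (249.7 to 269.9) and ATP5G2 at 152 TPM (143 to 161). They gave 48.5%, 32.5% and 19.0% of a sum of 799 TPM. That sum was 4.08-fold (3.90 to 4.27) the level of ATP5C1 and 1.34-fold (1.31 to 1.38) that of ATP5A1Z. These ratios were 3.52 and 1.07 with annotated lengths, and 3.32 and 1.09 with the most abundant transcript alone. ATP5G1 was 1.49-fold (1.41 to 1.58) above ATP5G3, but its reads were divided between a row of 625 bases with 61.6% of its TPM and a row of 642 bases with 38.4%. With the higher row alone the order turned, at 0.919 times ATP5G3. Of the remaining subunits, ATP5L, subunit g, stood at 358 TPM (340.2 to 376), ATP5J of the peripheral stalk at 259 TPM (247 to 272) and ATP5I, subunit e, at 135 TPM (122 to 149). Without ATP5A1W the 9 others lay within a 4.40-fold range and had a median of 259 TPM.

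The alpha subunit has a copy on each sex chromosome in chicken, and birds carry the W chromosome only in females. ATP5A1W had 7 reads and stood at 0.309 TPM (0.124 to 0.636), all on its row of 1631 bases, with none on its row of 1898 bases. ATP5A1Z stood 1924-fold (934 to 4787) above it. The W-linked genes HINTW and SPIN1W had none, which at 3 reads allows up to 0.455 and 0.0440 TPM. The ATP5A1W count was whole, but reads of sequence that the Z and W copies share can be placed on either gene, so these 7 reads are uncertain.

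Many subunits are encoded by very short messenger RNAs. The most abundant row was under 700 bases for 26 of the 51, with a median length of 683 bases over all, against 2800.5 bases over all detected genes. TPM divides reads by an effective length, which for ATP5I was 47.9% and for COX7C 51.5% of the annotated length but for NDUFS1 95.1%. Across the 8 complex IV subunits, Spearman's rho between length and TPM was -0.86, and across the 26 of complex I it was 0.31. It was 0.03 across the 10 of complex V, -0.17 across all 51 subunits and -0.10 across all detected genes. These are descriptions across genes of 1 library, which share depth and are not independent.

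In complex IV, the 5 subunits with rows under 700 bases were COX7C, COX6C, COX7B, COX6A1 and COX5A, and all of them stood above COX7A2 and COX8A, whose rows are longer. NDUFA4, with a row of 935 bases, went the other way, at 257 TPM against 187 TPM for COX5A. With only subunits of 700 bases or more, a setting chosen after seeing the data, complex IV kept 3 genes with a median of 77.9 TPM, or 0.821 times complex I, so the order of complexes I and IV turned. In the same setting complex III kept only 1 gene, UQCRFS1, at 2.06 times complex I, and complex V kept 5 genes, also at 2.06 times. With annotated in place of effective lengths, complex IV remained highest by median, at 3.22 times complex I. The gap between complexes I and III closed in that setting, where UQCR10 stood under NDUFV1.

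**Figure D3:**
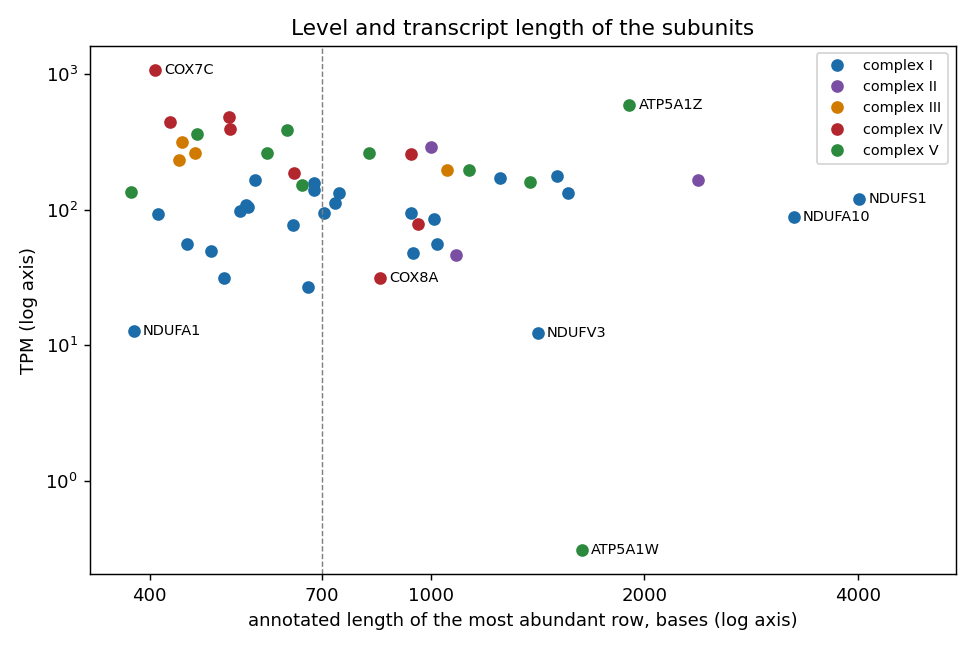
Level in TPM against the annotated length in bases of the most abundant row, both on log axes, for the 51 subunits colored by complex; the dashed line marks 700 bases. The complex IV points left of the line run from COX7C at 1070.1 TPM to COX5A at 187 TPM. To the right of the line, NDUFA4 of complex IV lies at 257 TPM, and ATP5A1Z is the highest point at 594 TPM.

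By median, the assembly factors of the prefix rule stood far below the subunits. The 18 assembly factors of the prefix rule had a median of 9.48 TPM (quartiles 5.16 and 15.7), and the subunit median was 14.3 times higher. COX17, the copper chaperone of complex IV, was the exception among them at 103 TPM (94.9 to 113). Of the 51 subunits, 32 stood above COX17, and 45 stood above every other assembly factor of the prefix rule. The 6 that missed the lower bar were COX8A, NDUFA2, NDUFS5, NDUFA1, NDUFV3 and ATP5A1W. COX17 stood above 97.0% of all genes, and NDUFAF3, which sets the lower bar, above 91.2%.

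Among the complex IV factors, the median of 8 was 15.0 TPM. COX11, which inserts copper, stood at 18.8 TPM (16.7 to 21.1). The enzymes of haem A synthesis stood close together, COX10 at 15.8 TPM (14.6 to 17.05) and COX15 at 12.8 TPM (11.1 to 14.6), a ratio of COX15 to COX10 of 0.810 (0.692 to 0.946). COX20 and COX14, which act on newly made core subunits, stood at 15.3 and 14.7 TPM, while COX16 and the membrane insertase COX18 were lowest at 3.28 and 2.02 TPM. Among the complex I factors, NDUFAF3 led at 37.7 TPM (33.8 to 41.9) and NDUFAF6 followed at 20.8 TPM (19.0 to 22.7). NDUFAF4, the binding partner of NDUFAF3, stood at 0.829 TPM (0.397 to 1.52) from 10 reads, the lowest of all assembly factors. NDUFAF5, a methyltransferase-like enzyme that hydroxylates a Q module subunit, stood at 5.95 TPM, its partner NDUFAF8 at 3.72 TPM from 13 reads and ATP5SL, known in mammals as the distal membrane arm factor DMAC2, at 5.13 TPM. The complex II factors lay in a narrow band: SDHAF4 at 11.9 TPM (10.3 to 13.7), SDHAF2, which helps attach the flavin to SDHA, at 7.05 TPM, SDHAF1 at 5.65 TPM and SDHAF3 at 5.27 TPM. ATP5S stood at 17.4 TPM (14.9 to 20.1).

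Assembly factors with other names had a median of the same order, but a few stood as high as many subunits. Of 41 listed, 26 had a row, and all 26 were detected, against 51.4% of all genes, with a median of 14.5 TPM. ACAD9, a complex I factor that also resembles fatty acid dehydrogenases, stood at 173 TPM (168.5 to 178) and FOXRED1, another complex I factor, at 109.9 TPM (106 to 114). Both lay above the complex I subunit median of 94.7 TPM. LRPPRC, which stabilises mitochondrial messenger RNA, stood at 57.3 TPM (55.7 to 58.9). The other 23 lay between 2.90 TPM for ECSIT and 46.1 TPM for HIGD1A.

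**Figure D4:**
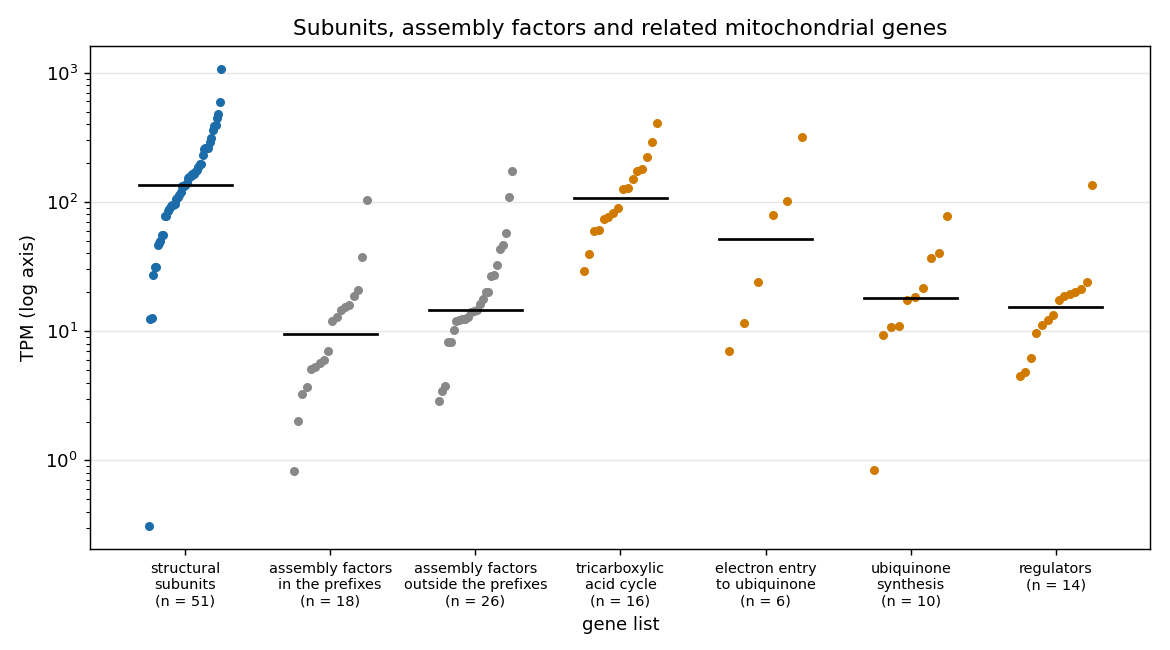
Levels in TPM on a log axis for the 51 subunits, the assembly factors within and outside the prefixes, and 4 related lists, each point being 1 gene and each black line a list median. The subunit median of 135 TPM and the tricarboxylic acid cycle median of 108 TPM lie close together, and the medians of assembly factors, ubiquinone synthesis and regulators lie between 9.48 and 18.0 TPM.

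By median, genes that feed electrons into the chain stood nearer the subunits. All 16 measured genes of the tricarboxylic acid cycle and pyruvate dehydrogenase were detected, against 51.4% of all genes. Their median was 108 TPM, and the subunit median was 1.25 times that. MDH2, malate dehydrogenase, stood at 411 TPM (401 to 420.5), the succinyl-CoA ligase subunit SUCLG2 at 291 TPM (286 to 296) and OGDH, of the oxoglutarate dehydrogenase complex, at 221 TPM (217 to 226). SDHA and SDHB thus stood within the range of these 16 genes of the cycle and pyruvate dehydrogenase, 29.2 to 411 TPM. Of the genes on routes that bring electrons to ubiquinone without complex I, all 6 measured were detected, with a median of 51.9 TPM. They ranged widely, from 7.02 to 316 TPM, and the lower ones lay within the range of the assembly factors. ETFA, of the flavoprotein that collects electrons from fatty acid oxidation, stood at 316 TPM (307 to 325), the choline dehydrogenase CHDH at 101 TPM (98.3 to 104) and ETFDH, which passes them to ubiquinone, at 79.6 TPM (77.5 to 81.8). Ubiquinone synthesis had a median of 18.0 TPM over 10 genes, 9 of them detected. COQ9 stood at 77.6 TPM, COQ4 at 40.5 TPM and COQ8A at 36.5 TPM. COQ2, which joins the ring to its tail, was the undetected member at 0.839 TPM (0.550 to 1.21).

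Regulators of mitochondrial genes were all detected, 14 of the 14 measured out of 22 listed, against 51.4% of all genes. Their median was 15.4 TPM. The orphan nuclear receptor ESRRG stood apart from the other regulators at 135 TPM (130.04 to 141). GABPA, an ETS-family activator of respiratory genes, stood at 24.0 TPM (22.8 to 25.2), and TFB2M, a mitochondrial transcription factor, at 21.1 TPM (19.5 to 22.9). The coactivators PPARGC1B and PPARGC1A stood at 17.5 and 11.1 TPM.

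Set beside the ribosomes, the subunit median lay between those of the mitochondrial and the cytosolic ribosomal proteins. The ranges overlapped, with mitochondrial ones from 5.68 to 71.7 TPM, cytosolic ones from 10.8 to 1280.1 TPM and subunits from 0.309 to 1070.1 TPM. All 39 of the mitochondrial ribosomal proteins measured passed as detected, against 51.4% of all genes. Their median was 26.9 TPM and their highest level 71.7 TPM for MRPS6, and the subunit median was 5.03 times theirs. All 34 of the cytosolic ribosomal proteins measured passed as detected and had a median of 413 TPM, and the subunit median was 0.328 times theirs. Their median row lengths were 949 and 531.5 bases. RPS25, at 1280.1 TPM, was the highest of the measured cytosolic ribosomal genes, with COX7C at 1070.1 TPM between it and the next, RPL8, at 861 TPM.

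Most members rested on a single annotated transcript, 58 of the 72. Of the 14 with several, 5 had over 90% of their TPM on 1 row, among them NDUFA12, NDUFS3, NDUFS6 and COX7A2L. SDHB was divided between a row of 998 bases with 82.1% and a row of 1025 bases with 17.9%. NDUFAF6 and NDUFAF5 were the most divided, with 45.7% and 43.0% on their leading rows. The summed estimated reads were more than 0.005 from a whole number for 40 of the 72 members (55.6%), against 39.2% of all genes with reads. At 10 TPM or more this held for 37 of 62 members (59.7%), against 71.4% of genes. Such totals can arise where reads are split with rows outside the gene. Reads of a member can also lie on unnamed assembled transcripts, so a low level, such as that of NDUFA1 or NDUFV3, may be too low.

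**Figure D5:**
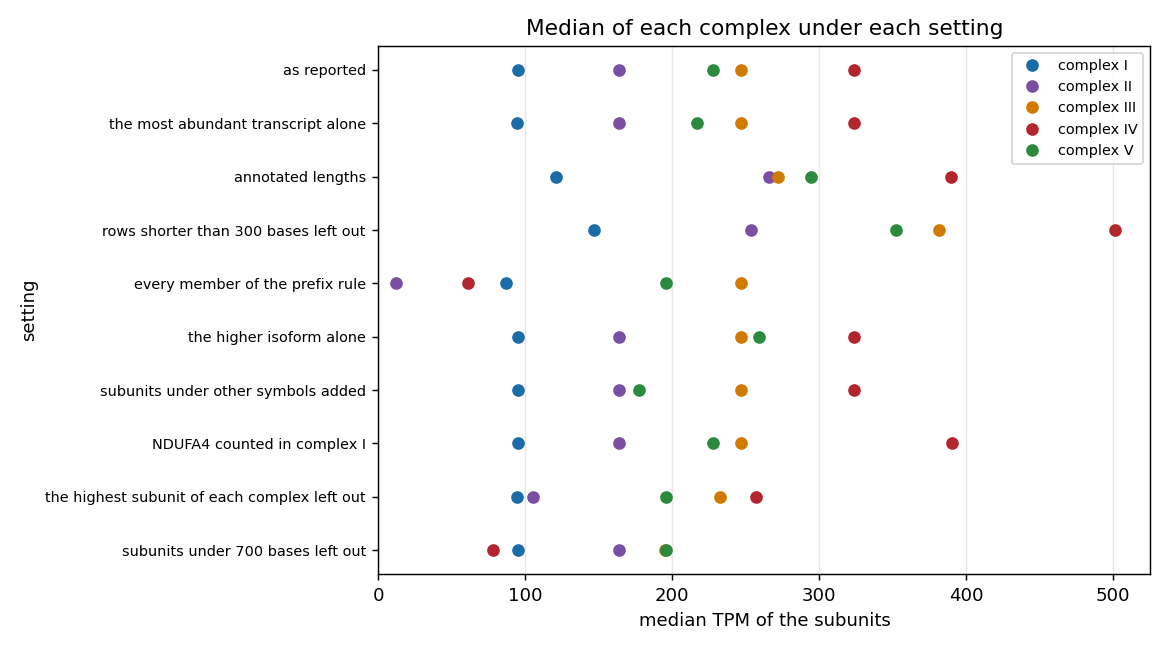
Median TPM of the subunits of each complex, one point per complex, under the reported setting and the 9 alternatives. Complex I is lowest and complex IV highest in each setting except where assembly factors are included and where subunits under 700 bases are left out.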

How the data were processed

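One RNA-seq library of total RNA from adult chicken kidney was used. Per the labels' protocols, RNA was extracted with a kit that keeps small RNA and the library followed a TruSeq protocol. Salmon and the galGal6 build are named in the submitters' processing notes, and neither the Salmon version nor the transcript set is given in the sources used here. The authors' deposited table gives estimated counts per row, with shared reads split among rows, and TPM scaled over all 79570 rows. Annotated and effective lengths stand beside them, per the file headers.

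TPM and estimated counts were summed over the rows of each gene symbol. Poisson intervals used counts rounded to whole numbers, and gene ratios were given exact conditional binomial intervals, scaled to TPM. Shared reads and reads without molecular identifiers add error that these leave out. Rows without reads were given the TPM of 3 reads on the shortest row. With 1 library no p-value was computed. RefSeq gene names came from the GRCg7b table, whose build differs, so no coordinates are given.

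The members and lists were chosen with earlier results of these data known. Named were core and isoform-family subunits, the 4 highest and 3 lowest of each complex, the 3 highest assembly factors of each complex, and the 3 highest genes of each other list. Further names were chosen after their values were seen. A few genes are not reported by name in the text or plots but stay in all counts and medians. Ribosomal lists left out kinases and paralogues ending in L. The interval code was checked on simulated Poisson counts and the gene sums on known folds. This checks the code and not how shared reads were split among rows. Python 3.11.15, pandas 2.3.3, numpy 2.4.6, scipy 1.17.1 and matplotlib 3.10.9 were used.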

Additional observations from a re-analysis of the deposited data

Results flagged for a closer look

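Assembled transcripts without a gene name, which no comparison above uses, held 25.9% of the library's reads, a signal outside the measured members. Of the 34512 such transcripts, 196 stood at or above the subunit median of 135 TPM and drew 7.99% of reads. Whether any of them belongs to the 25 RefSeq genes of the prefixes without a row among the members was not tested.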

How the results depend on the processing

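Complex I kept the lowest and complex IV the highest median under all alternatives except 2. Some alternatives could not turn the order of complexes I and IV. No member has a row under 300 bases, so leaving such rows out rescaled all members alike. The higher isoform alone and the added symbols changed the median of complex V but not those of complexes I to IV. With every member of the prefixes, assembly factors included, complexes I, II, IV and V had medians of 86.6, 11.9, 60.7 and 196 TPM and the members of the complexes together, CYCS left out, 94.6 TPM, and the ratios of complexes II and IV to I turned to 0.138 and 0.701. With subunits under 700 bases left out, complex III kept UQCRFS1 alone, complexes III, IV and V stood at 195, 77.9 and 196 TPM and all subunits at 119 TPM, and the ratios of III, IV and V to I were 2.06, 0.821 and 2.06. Annotated lengths shifted the median gene by 0.72 on the log2 scale and gave medians of 121, 266, 272, 390.1 and 294 TPM for complexes I to V and 187 TPM over all, with ratios of 2.20 for complex II and 2.25 for complex III. Leaving out rows under 300 bases shifted it by 0.63 and gave 147, 254, 382, 501 and 352 TPM for complexes I to V and 209 TPM over all, with the same ratios. The most abundant transcript alone put complex V at 217 TPM and turned the ratio of ATP5G1 to ATP5G3 to 0.919. The higher isoform alone put complex V at 259 TPM, 2.74 times complex I, and adding C14orf2 and USMG5 put it at 177 TPM, 1.87 times complex I. Counting NDUFA4 in complex I put complex IV at 391 TPM, 4.12 times complex I. Without the highest subunit of each complex, complexes II, IV and V stood at 105, 257 and 196 TPM, at 1.11, 2.72 and 2.07 times complex I. The last 2 settings and the limit of 700 bases were chosen after seeing the data. The subunit median was 22.4 times that of genes without a LOC symbol and 21.7 times that of genes with at least 3 reads. Between 67 and 71 members were detected under the other thresholds, against 36.7% to 60.4% of all genes.

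The causes of these moves were not tested, apart from the changes of members and scale that the settings make by construction. Depth limited NDUFA1, NDUFAF4, NDUFAF8 and ATP5A1W, with 37 reads or fewer. No paired analysis was possible because the study has 1 RNA-seq library. Promoter motifs and protein identities were planned and not run.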

Other observations

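A pair of ATP synthase subunits listed under other symbols lay below the complex V median. USMG5, a small membrane subunit that helps hold ATP synthase dimers together, stood at 75.5 TPM (71.8 to 79.3) from 1581 reads. C14orf2, a small membrane subunit which RefSeq also names ATP5MPL, stood at 71.1 TPM (63.5 to 79.2) from 325 reads. Their intervals overlapped, and both lay under ATP5I, the lowest complex V subunit of the prefixes other than ATP5A1W.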
